A study of Mus musculus with 9 samples.

Results

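Microtubules and the proteins that bind them make up the internal track system of a growing axon. The genes described here encode alpha, beta and gamma tubulins, the stathmins, the collapsin response mediator proteins (CRMPs), structural microtubule-associated proteins (MAPs), proteins that ride on growing microtubule ends, and the kinesin motors. They were chosen by name: every probe set whose array annotation gave 1 gene symbol was taken if that symbol was a numbered tubulin, Stmn1 to Stmn4, Crmp1, Dpysl2 to Dpysl5, Map1a, Map1b, Map2, Map4, Map7, Mapt, Mapre1 to Mapre3, Clasp1, Clasp2 or a numbered kinesin (Kif). This gave 130 of the 22690 probe sets on the array, for 57 of the 12394 genes with a probe set of their own. No probe set had Map1a as its 1 symbol, and that gene was not analysed here.

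The study asked how loss of Gap43, which encodes a growth cone membrane protein, alters gene expression in the barrel cortex, the part of mouse somatosensory cortex that maps the whiskers. All animals were C57BL/6 mice at postnatal day 5, knockout (KO), heterozygous (HZ) or wild type (WT) for Gap43, with 3 mice and 3 arrays per genotype. Layer IV was cut out of the cortex by laser microdissection, and its RNA was amplified in 2 cycles before hybridisation to an Affymetrix array. The labels refer to an earlier description of the mouse lines and do not themselves say which part of the gene is deleted or whether the animals were littermates.

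In a growing neuron, tubulin dimers of 1 alpha and 1 beta chain add to microtubule plus ends, and gamma tubulin starts new filaments. Stathmins bind free dimers or promote shrinkage, CRMPs deliver dimers and carry semaphorin signals to the growth cone, MAPs bundle and stabilise the lattice, end-binding proteins and CLASPs capture growing tips, and kinesins haul cargo along the track or take it apart. Several of them, such as Tubb3, Stmn2 and Dpysl3, are known as messengers of young neurons, whereas the mitotic kinesins belong to dividing cells.

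The signal of the Gap43 probe set was 979, 1930.2 and 1299 on the KO arrays, 5015, 5039 and 4389 on the HZ arrays and 7089, 4746 and 4294 on the WT arrays, as MAS5 signal, a linear intensity scaled to a common level on every array. All KO arrays lay below all HZ and WT arrays, whereas HZ and WT overlapped. Gap43 was -1.95 on the log2 scale in KO against WT (limma adjusted p = 0.0173), -1.82 in KO against HZ (adjusted p = 0.0362) and -0.13 in HZ against WT (adjusted p = 0.915). The KO arrays thus still gave signal at this probe set, and the labels do not say where it lies relative to the deletion. Each genotype held 2 females and 1 male by X- and Y-linked transcripts. The ratio of 3' to 5' control signal for Gapdh, which is higher where RNA is more degraded or amplified less fully, was 15.9 to 17.2 on KO arrays, 11.5 to 27.9 on HZ arrays and 12.5 to 19.5 on WT arrays, with HZ 2 the highest.

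The excised tissue carried the markers of its label unevenly. The 5 measured layer IV markers (Rorb, Cux1, Cux2, Pcdh20 and Scnn1a, of 8 listed) summed to 1843 to 3034 on KO arrays, 3829 to 4457 on HZ arrays and 3071 to 3550 on WT arrays. All KO arrays therefore lay below the others, although KO 1 at 3034 was close to WT 2 at 3071. The 7 measured deep layer and subplate markers summed to 968 to 2381 on KO arrays, 1177 to 1770.5 on HZ arrays and 1176 to 1936 on WT arrays. Of their 5 kept genes, 3 were positive in KO against WT. The 10 immature neuron markers summed to 35939.6 to 48289 on KO arrays, 37614 to 39913 on HZ arrays and 35879.6 to 42265 on WT arrays, with 7 of 9 kept genes positive in KO against WT (median log2 change 0.33) and the largest for Sox11 (1.25, limma adjusted p = 0.39). The 10 astrocyte markers summed to 19788 to 28204 on KO arrays, 24949 to 25547 on HZ arrays and 24863 to 30919 on WT arrays, and 7 of 9 kept were negative in KO against WT, with the smallest p for Gja1 (-1.04, limma adjusted p = 0.114). In KO against WT, 8 of 9 endothelial and mural markers, 3 of 3 microglia markers and 6 of 10 interneuron markers were negative, and 5 of 8 oligodendrocyte markers positive. Endothelial and mural markers summed to 3715 to 4998 on KO, 4639.8 to 5367 on HZ and 4366 to 4822 on WT arrays, and interneuron markers to 4089.4 to 6468 on KO, 4885 to 6915 on HZ and 4370.1 to 7494 on WT arrays. Microglia markers summed to 1372 to 1652 on KO, 1544 to 2024 on HZ and 1503 to 3199.8 on WT arrays, and oligodendrocyte markers to 3881 to 5488 on KO, 5228 to 6293 on HZ and 5259 to 7417 on WT arrays. The 9 measured neuron markers summed to 13657 to 20880.5 on KO arrays, 16562 to 21893 on HZ arrays and 15838 to 20819.7 on WT arrays. No marker was listed at 0. Their part in the results on microtubule genes was not tested, and in such bulk tissue fewer cells of a type and less RNA per cell cannot be told apart.

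Of the 130 probe sets, 94 for 50 genes were among the 13576 brightest probe sets that were tested. The other 36 were too dim. Genes left with no tested probe set were Dpysl2, the mitotic kinesins Kif20a and Kif23, and Kif12, Kif13a, Kif21b and Kif5a. Dpysl2 encodes CRMP2, a tubulin-binding protein known to be abundant in developing brain. Its only probe set here read 22.6, 72.1 and 25.9 on the KO arrays, 20.3, 9.77 and 22.4 on the HZ arrays and 20.4, 83.4 and 10.9 on the WT arrays, which tells little about the gene at this signal. Where a gene had several probe sets, the brightest is given unless stated. Signals of different probe sets cannot be set against each other as levels of RNA.

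None of the tested microtubule genes passed between any pair of genotypes. At a limma adjusted p under 0.05, 0 of the 94 were called in KO against WT, where 0.00737% of all probe sets tested were, and their smallest adjusted p was 0.518. HZ against WT likewise called 0 of the 94, beside 0% of all probe sets, with a smallest adjusted p of 0.789. KO against HZ called 0 of the 94, beside 0.00737%, with a smallest adjusted p of 0.539. Their 95% intervals had a median width of 0.40 on either side of the log2 change, which is 1.32-fold, and this ranged from 0.205 to 1.77.

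The arrangement of the KO and WT arrays was uneven in one direction. In 18 of the 94 probe sets (19.1%), for 16 genes, all KO arrays lay above all WT arrays, against 7.83% of all probe sets tested. In 1 (1.06%), a second probe set of Tuba4a, all KO arrays lay below, against 5.83%. The 18 comprised 4 for tubulins, 1 for a stathmin, 3 for CRMPs, 3 for structural MAPs, 4 for plus end proteins and 3 for kinesins. At an unadjusted limma p under 0.05, 9 had positive changes (background 4.43%) and 2 negative ones (background 3.59%). Log2 changes were above 0 for 62 and below 0 for 32, with a median of 0.086, beside 0.022 over all probe sets tested. The median over the members was 0.14 without WT 2, beside 0.034 over all probe sets. Then 34 of the 94 (36.2%) had all KO arrays above the remaining WT arrays, against 17.2% of all probe sets. In 4 they lay below, against 13.1%. The Gapdh 3' to 5' ratio was 19.5 on WT 2 and 12.5 and 12.9 on the other WT arrays. Without WT 2, every KO array thus had a higher Gapdh ratio than every WT array. The same ratio for beta-actin was 11.5, 12.1 and 7.80 on the KO arrays, and 8.92 and 8.12 on WT 1 and WT 3. For beta-actin, KO 3 thus lay below both of these WT arrays. The part of these ratios in the counts was not tested.

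In HZ against WT, all HZ arrays lay above all WT arrays in 7 probe sets (background 8.51%) and below them in 4 (background 4.39%). At an unadjusted limma p under 0.05 there were 3 positive changes (background 4.06%) and 3 negative ones (background 2.16%). The median log2 change was 0.037, beside 0.031 over all probe sets. Without HZ 2, the median over the members was 0.029, beside 0.041 over all probe sets. HZ then lay wholly above WT in 20 probe sets (background 16.8%) and below it in 7 (background 8.11%). The median over the members was 0.088 without WT 2 and 0.013 without WT 1, beside 0.038 and 0.027 over all probe sets.

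Between KO and HZ, all KO arrays lay above all HZ arrays in 10 probe sets for 9 genes (background 6.67%) and below them in 4 for 3 genes (background 7.35%). There were 7 positive changes (background 3.96%) and 2 negative ones (background 3.76%) at an unadjusted limma p under 0.05, and the median log2 change was 0.072, beside -0.02. Without HZ 2, the median over the members was 0.019, beside -0.039 over all probe sets. KO then lay wholly above HZ in 19 probe sets (background 12%) and below it in 11 (background 16%). Without KO 2 the median over the members was 0.042, beside -0.0042 over all probe sets. This comparison and KO against WT share the KO arrays, so that the 2 do not stand for separate evidence.

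**Figure D1:**
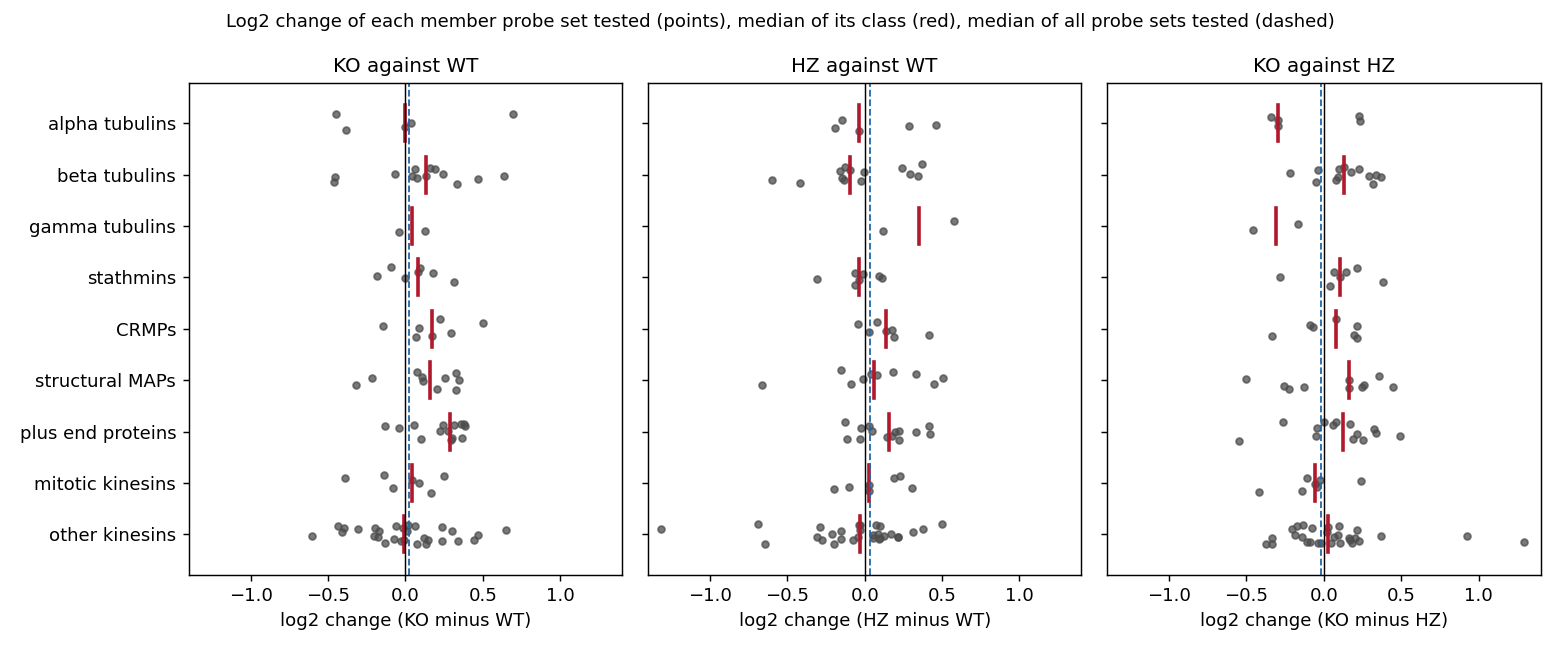
Log2 change of each tested probe set (points) by class, with 1 panel per comparison, where a positive value is higher in the first-named genotype. Red bars mark class medians and the dashed blue line the median over all probe sets tested. In KO against WT the median was 0.29 for plus end proteins and -0.0084 for the kinesins outside mitosis.

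The alpha tubulins form one side of each dimer. Tuba1a, the main alpha tubulin of young neurons, read 19121, 19937 and 22838 on the KO arrays, 15131, 17564 and 20368 on the HZ arrays and 18695, 24281 and 17733 on the WT arrays. The genotypes overlapped, and the log2 change was 0.038 in KO against WT, -0.19 in HZ against WT and 0.23 in KO against HZ (limma adjusted p = 0.959, 0.818 and 0.74). This probe set is of the _x_at kind, some of whose probes also match other sequences, and near-identical alpha tubulins may contribute.

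Tuba4a, an alpha tubulin whose messenger encodes no C-terminal tyrosine, had negative changes in KO against both other genotypes. Its signal was 5878, 6108 and 7062 on the KO arrays, 7861, 7956 and 8302 on the HZ arrays and 6925, 10268 and 7913 on the WT arrays. All KO arrays lay below all HZ arrays, and below WT 2 and WT 3, whereas KO 3 was above WT 1. The log2 change was -0.38 in KO against WT (95% interval -0.69 to -0.078, limma adjusted p = 0.537) and -0.34 in KO against HZ (adjusted p = 0.604). WT 2 was the highest array at both tested probe sets, and without it the KO against WT change of Tuba4a was -0.23. The second probe set read 1781, 1736 and 1661 on the KO arrays, 2135, 1978 and 2276 on the HZ arrays and 1926, 3343 and 2029.8 on the WT arrays, with all KO arrays below all others and a change of -0.45 in KO against WT (limma adjusted p = 0.588).

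Tuba3b, a further alpha tubulin, was dim. It read 192, 255 and 174 on the KO arrays, 162, 253 and 122 on the HZ arrays and 104, 136 and 122 on the WT arrays. Every KO array exceeded every WT array, and HZ spanned both. The KO against WT change of 0.69 (95% interval 0.15 to 1.23, limma adjusted p = 0.537) was the largest positive one of the 94, and HZ against WT gave 0.46. Tuba8, a divergent alpha tubulin, averaged 220.2 ± 14.3 on KO, 277 ± 54.1 on HZ and 223 ± 43.7 on WT arrays (SD, n = 3), with all KO arrays below all HZ arrays and a KO against HZ change of -0.29 (limma adjusted p = 0.767).

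Beta tubulins had 10 of 13 tested probe sets positive in KO against WT (median log2 change 0.13), 4 of 13 positive in HZ against WT (median -0.092) and 10 of 13 positive in KO against HZ (median 0.13), where the share of all probe sets tested that were positive was 53.7% for KO against WT, 55.3% with HZ set against WT and 46.6% between KO and HZ. Leaving out HZ 2 or WT 2 turned the sign of the median in HZ against WT. Tubb3, the beta tubulin that marks neurons, read 4134, 3499 and 4113 on the KO arrays, 3286, 2933 and 3061 on the HZ arrays and 3062, 3321 and 2936 on the WT arrays. All KO arrays were above all HZ and all WT arrays, and HZ and WT overlapped. The fitted log2 change was 0.33 in KO against WT (95% interval 0.058 to 0.60, limma adjusted p = 0.548), 0.34 in KO against HZ (adjusted p = 0.567) and -0.0057 in HZ against WT (adjusted p = 0.993).

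Tubb2b, a beta tubulin of newborn neurons whose human mutations disturb cortical folding, read 11134, 12315 and 11394 on the KO arrays, 7100.1, 11108 and 9163 on the HZ arrays and 8873, 11132 and 9549 on the WT arrays. KO arrays again exceeded the others, although KO 1, HZ 2 and WT 2 were almost equal. Its log2 change was 0.24 in KO against WT and 0.37 in KO against HZ (limma adjusted p = 0.728 and 0.59), and without HZ 1, the lowest array, KO against HZ gave 0.20. Its close relative Tubb2a read 12658, 14019 and 15272 on the KO arrays, 11118, 13034 and 11691 on the HZ arrays and 10888, 15690.3 and 12014 on the WT arrays, with overlapping genotypes and a KO against WT change of 0.13 (limma adjusted p = 0.834). That probe set is of the _s_at kind, shared by several transcripts. The pseudogene Tubb2a-ps2, which the rule also took, read 172, 229 and 246 on the KO arrays, 217, 136 and 171 on the HZ arrays and 146, 102 and 154 on the WT arrays with all KO arrays above all WT arrays and a log2 difference of 0.63 (limma adjusted p = 0.537).

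The remaining beta tubulins overlapped between genotypes at their brightest probe sets. Tubb5, the broadly expressed isotype also used by dividing progenitors, averaged 16173 ± 2019 on KO, 14249 ± 477 on HZ and 15682 ± 1776 on WT arrays (SD, n = 3 each), a log2 change of 0.043 in KO against WT and -0.13 in HZ against WT. A second Tubb5 probe set gave -0.46 in KO against WT and -0.60 in HZ against WT (limma adjusted p = 0.71 and 0.789). Tubb4b, found in many tissues and in cilia, averaged 3270.1 ± 461 on KO, 3130.3 ± 669.7 on HZ and 3409.7 ± 87.7 on WT arrays, and Tubb4a, an isotype of mature brain, 671 ± 60.7 on KO, 702 ± 147 on HZ and 586 ± 66.6 on WT arrays. A second Tubb4b probe set had all HZ arrays above all WT arrays, with a log2 change of 0.29 (limma adjusted p = 0.801). Of the 4 tested Tubb4b probe sets, 2 were positive and 2 negative in HZ against WT. Tubb6, a minor isotype outside neurons, was dim at 134 ± 49.8 on KO, 137 ± 41 on HZ and 187 ± 51.2 on WT arrays, with log2 changes of -0.46 in KO against WT and -0.42 in HZ against WT (limma adjusted p = 0.74 and 0.81).

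**Figure D2:**
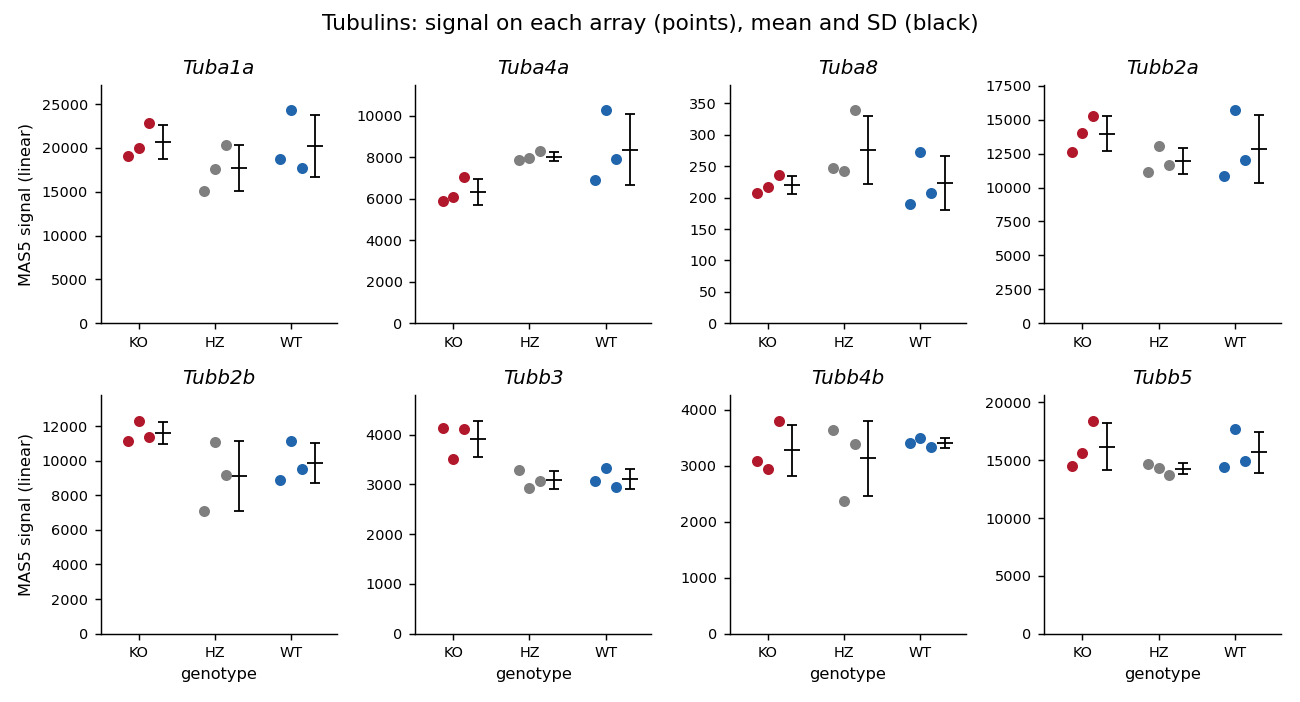
MAS5 signal of 8 tubulin genes on each array, with KO, HZ and WT from left to right, a panel per gene and bars for the mean and SD of 3 arrays. The 3 KO points of Tubb3 lie above all HZ and WT points, and those of Tuba4a lie below all HZ points.

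Gamma tubulin, which nucleates new microtubules at the centrosome and elsewhere, has a pair of genes. Tubg1 averaged 357 ± 64.1 on KO, 399 ± 30.5 on HZ and 365 ± 26.2 on WT arrays (SD, n = 3 each) and its log2 change was -0.043 in KO against WT. Tubg2, the copy known for expression in brain, read 119, 136 and 134 on the KO arrays, 251, 167 and 146 on the HZ arrays and 87.1, 124 and 149 on the WT arrays. All KO arrays lay below all HZ arrays and within the WT range, and HZ 1 and HZ 2 were the highest arrays. This gave a log2 change of -0.46 in KO against HZ and 0.58 in HZ against WT (limma adjusted p = 0.695 and 0.789).

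The stathmins, which take tubulin dimers out of the pool, overlapped between genotypes at their brightest probe sets. Stmn1, stathmin itself, averaged 18040.1 ± 2380.5 on KO, 16229 ± 819 on HZ and 16988 ± 1490.1 on WT arrays (SD, n = 3 each), and Stmn2, the growth cone protein SCG10, 12089.6 ± 1642 on KO, 11698 ± 532 on HZ and 12015 ± 491 on WT arrays. Stmn3, known as SCLIP, averaged 20008 ± 965 on KO, 18626 ± 679 on HZ and 18844 ± 2619 on WT arrays. The KO against WT log2 changes were 0.082 for Stmn1, 0.00034 for Stmn2 and 0.094 for Stmn3, and none of the 3 exceeded 0.15 in KO against HZ. The median coefficient of variation within a genotype was 10.99% over the stathmin probe sets, beside 13.9% over all 94. The stathmin probe sets had mean signals of 2071 to 19159, whereas those of all 94 ranged from 123 to 19519, and dim probe sets scatter more.

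Stmn4, known as RB3, read 3334, 3338 and 6167 on the KO arrays, 5622, 4596 and 4770.2 on the HZ arrays and 4356, 4392 and 5285 on the WT arrays. KO 1 and KO 2 were the lowest arrays and KO 3 the highest, so that its KO against WT change of -0.19 (limma adjusted p = 0.853) moved to -0.48 without KO 3. A second, dimmer Stmn1 probe set read 2702, 2308 and 2218 on the KO arrays, 1817, 2169.8 and 1582 on the HZ arrays and 2075, 1564 and 2205 on the WT arrays, with all KO arrays above all others. Its log2 change was 0.31 in KO against WT and 0.38 in KO against HZ (limma adjusted p = 0.688 and 0.631), while the brighter set is an _s_at set shared by several transcripts. A second Stmn2 probe set had all HZ arrays below all WT arrays, with a log2 change of -0.31 (limma adjusted p = 0.789).

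The CRMPs are cytosolic phosphoproteins that link semaphorin 3A receptors to the cytoskeleton. In KO against WT, 6 of 7 tested probe sets were positive (median log2 change 0.17), as were 6 of 7 in HZ against WT (median 0.13). In KO against HZ, 4 of 7 were positive (median 0.082), and that median was -0.0069 without HZ 1. Over all probe sets tested, 53.7%, 55.3% and 46.6% were positive in these comparisons. Of the 7, 3 belong to Dpysl3 and 2 to Dpysl4. Crmp1 read 8389.6, 7698 and 8210.4 on the KO arrays, 6815, 7311 and 6782 on the HZ arrays and 5932, 7617 and 6341 on the WT arrays. All KO arrays were above all HZ and WT arrays, by little in the case of WT 2. The log2 change of Crmp1 was 0.30 in KO against WT (95% interval 0.043 to 0.55, limma adjusted p = 0.575) and 0.22 in KO against HZ (adjusted p = 0.705).

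Dpysl5, which encodes CRMP5, had the smallest p of all microtubule genes in KO against WT. Its signal was 777, 749.7 and 687 on the KO arrays, 613, 795 and 689.5 on the HZ arrays and 438, 546 and 575 on the WT arrays. Both KO and HZ lay wholly above WT and overlapped each other. The log2 change was 0.50 in KO against WT (95% interval 0.14 to 0.86, limma adjusted p = 0.518), 0.42 in HZ against WT (adjusted p = 0.789) and 0.082 in KO against HZ (adjusted p = 0.944).

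Dpysl3, which encodes CRMP4, a protein of growth cones and immature neurons, read 10273, 11283 and 11181 on the KO arrays, 9449, 9691 and 9009 on the HZ arrays and 9628, 9495 and 9863 on the WT arrays. The KO arrays exceeded all others by a small margin, and HZ and WT overlapped. The estimated log2 change was 0.17 in KO against WT and 0.22 in KO against HZ (limma adjusted p = 0.689 and 0.623). At the other tested probe sets of Dpysl3 the genotypes overlapped. They gave 0.22 and 0.086 in KO against WT, and 0.19 and -0.092 in KO against HZ. Dpysl4, which encodes CRMP3, averaged 1311 ± 177 on KO, 1393 ± 339 on HZ and 1255 ± 205 on WT arrays (SD, n = 3 each) and had a KO against WT change of 0.066, with overlapping genotypes.

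**Figure D3:**
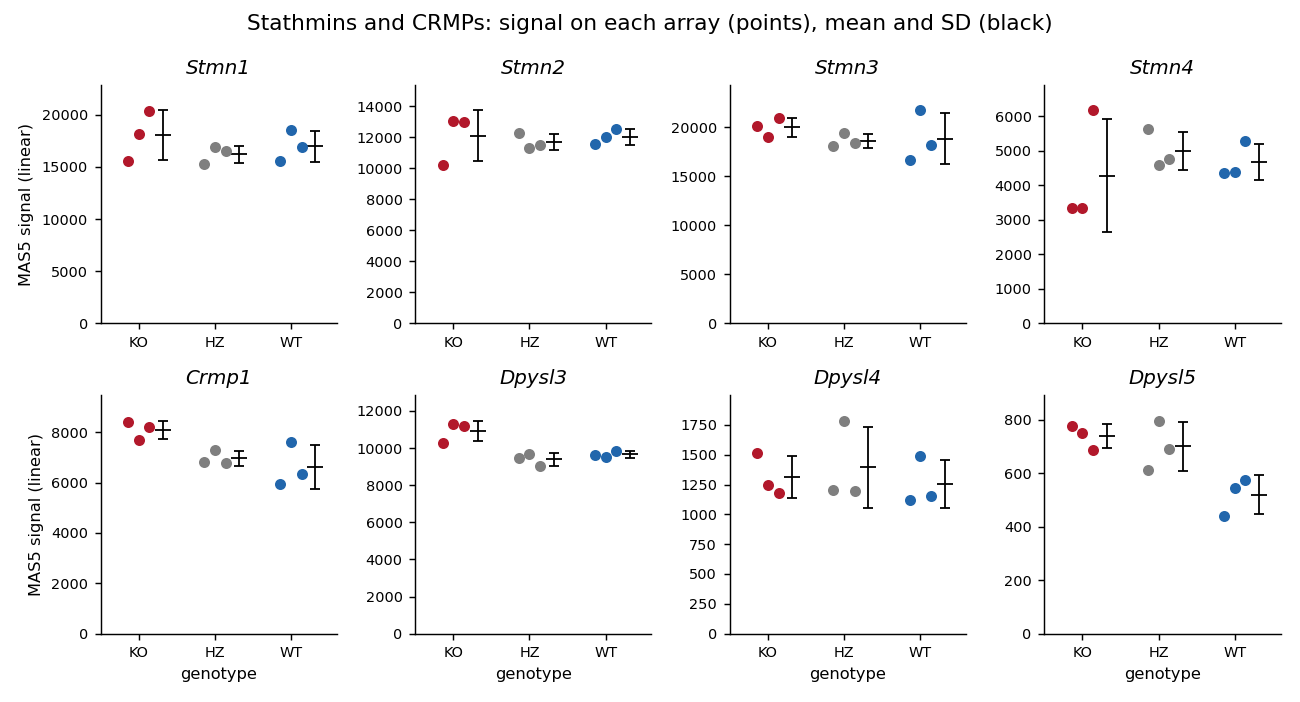
MAS5 signal of stathmin and CRMP genes on each array, with KO, HZ and WT from left to right, a panel per gene and bars for the mean and SD of 3 arrays. The stathmins overlap between genotypes, the KO points of Crmp1 and Dpysl3 lie above all HZ and WT points, and the KO and HZ points of Dpysl5 lie above all WT points.

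Among the structural MAPs, 8 of 10 tested probe sets were positive in KO against WT, against 53.7% of all probe sets tested. Their median log2 change was 0.16. Of the 10, 3 belong to Map4 and 3 to Mapt. In HZ against WT and in KO against HZ, 6 of 10 were positive (medians 0.063 and 0.16). Map4, the MAP found in nearly all cell types, read 2812, 3145 and 2746 on the KO arrays, 2224, 2367 and 2199 on the HZ arrays and 2455, 2173 and 2209 on the WT arrays. All KO arrays were above all HZ and WT arrays. On the log2 scale the difference was 0.35 in KO against WT (95% interval 0.071 to 0.62, limma adjusted p = 0.537) and 0.35 in KO against HZ (adjusted p = 0.542). Its other 2 probe sets gave 0.11 and 0.21 in KO against WT.

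Mapt encodes tau, the MAP of axons. Its brightest probe set read 4086, 3479 and 3943 on the KO arrays, 3093, 3594 and 3029 on the HZ arrays and 2932, 3478 and 2782 on the WT arrays. KO 2 was almost equal to WT 2 and below HZ 2, and the other KO arrays were above all HZ and WT arrays. The log2 change was 0.33 in KO against WT and 0.082 in HZ against WT (limma adjusted p = 0.586 and 0.906). A second Mapt probe set read 2646, 2273 and 2224 on the KO arrays, 2548, 3485 and 2569 on the HZ arrays and 2089, 1774 and 2119.6 on the WT arrays, with all HZ arrays above all WT arrays, and gave the smallest p of all microtubule probe sets in HZ against WT, at a log2 change of 0.51 (limma adjusted p = 0.789). The third, dim one had the opposite sign in KO against WT, -0.32.

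Map1b, the first MAP to appear in growing axons, read 788, 1899 and 2286 on the KO arrays, 1387, 989.7 and 976 on the HZ arrays and 2347, 1146 and 2020.3 on the WT arrays. KO 1 was the lowest array and WT 1 the highest, and the genotypes overlapped. Its log2 change was -0.22 in KO against WT (limma adjusted p = 0.9) and became 0.24 without KO 1, so that 1 array set its sign. In HZ against WT, Map1b gave -0.67 (adjusted p = 0.79).

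Map2, the MAP of dendrites, was dim at 163 ± 61.9 on KO, 175 ± 43.4 on HZ and 123 ± 24.1 on WT arrays (SD, n = 3 each), with log2 changes of 0.32 in KO against WT and 0.45 in HZ against WT. Map7, ensconsin, which recruits conventional kinesin to microtubules, averaged 273 ± 43.9 on KO, 321 ± 42.3 on HZ and 251 ± 31.7 on WT arrays. Its log2 change was 0.33 in HZ against WT and -0.22 in KO against HZ (limma adjusted p = 0.79 and 0.832).

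The plus end proteins had a median log2 change of 0.29 in KO against WT over 14 tested probe sets, of which 12 were positive and of which 5 belong to Mapre1 and 4 to Mapre2. With 1 probe set per gene it was 0.28, below the 0.32 of the structural MAPs. The median was 0.16 in HZ against WT and 0.12 in KO against HZ, with 10 of 14 positive in each. Clasp1, which stabilises growing tips, read 4697, 4485 and 4275 on the KO arrays, 3229, 3611 and 3797 on the HZ arrays and 3580.1, 3682 and 3535 on the WT arrays. All KO arrays stood above all HZ and WT arrays. The fitted log2 change was 0.32 in KO against WT (95% interval 0.062 to 0.57, limma adjusted p = 0.537) and 0.34 in KO against HZ (adjusted p = 0.539), the smallest p of the microtubule genes in that comparison.

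Clasp2, its relative in neuronal growth cones, read 3016, 3303 and 2866 on the KO arrays, 2382, 3666 and 2763 on the HZ arrays and 2428, 2664 and 2475 on the WT arrays. KO was wholly above WT, while HZ 2 was the highest array of all. The KO against WT change was 0.28 (limma adjusted p = 0.708), and the other 2 probe sets gave 0.22 and 0.39.

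Mapre1, Mapre2 and Mapre3 encode the end-binding proteins EB1, EB2 and EB3. Mapre2 read 13542, 15598 and 15199 on the KO arrays, 11793, 14488 and 11976 on the HZ arrays and 10994, 13902 and 12687 on the WT arrays, with KO 1 below WT 2 and otherwise KO above WT. All 4 of its tested probe sets were positive in KO against WT, at 0.24, 0.30, 0.30 and 0.36 (limma adjusted p = 0.647, 0.679, 0.677 and 0.728). Mapre1 averaged 3957 ± 481 on KO, 4061 ± 331 on HZ and 3669.5 ± 233 on WT arrays (SD, n = 3 each), with a KO against WT change of 0.10, and its 5 tested probe sets were of both signs. Mapre3, the neuronal form, was dim at 175 ± 39.6 on KO, 182 ± 49.7 on HZ and 129.99 ± 25.6 on WT arrays, with a change of 0.38 in KO against WT and 0.43 in HZ against WT.

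**Figure D4:**
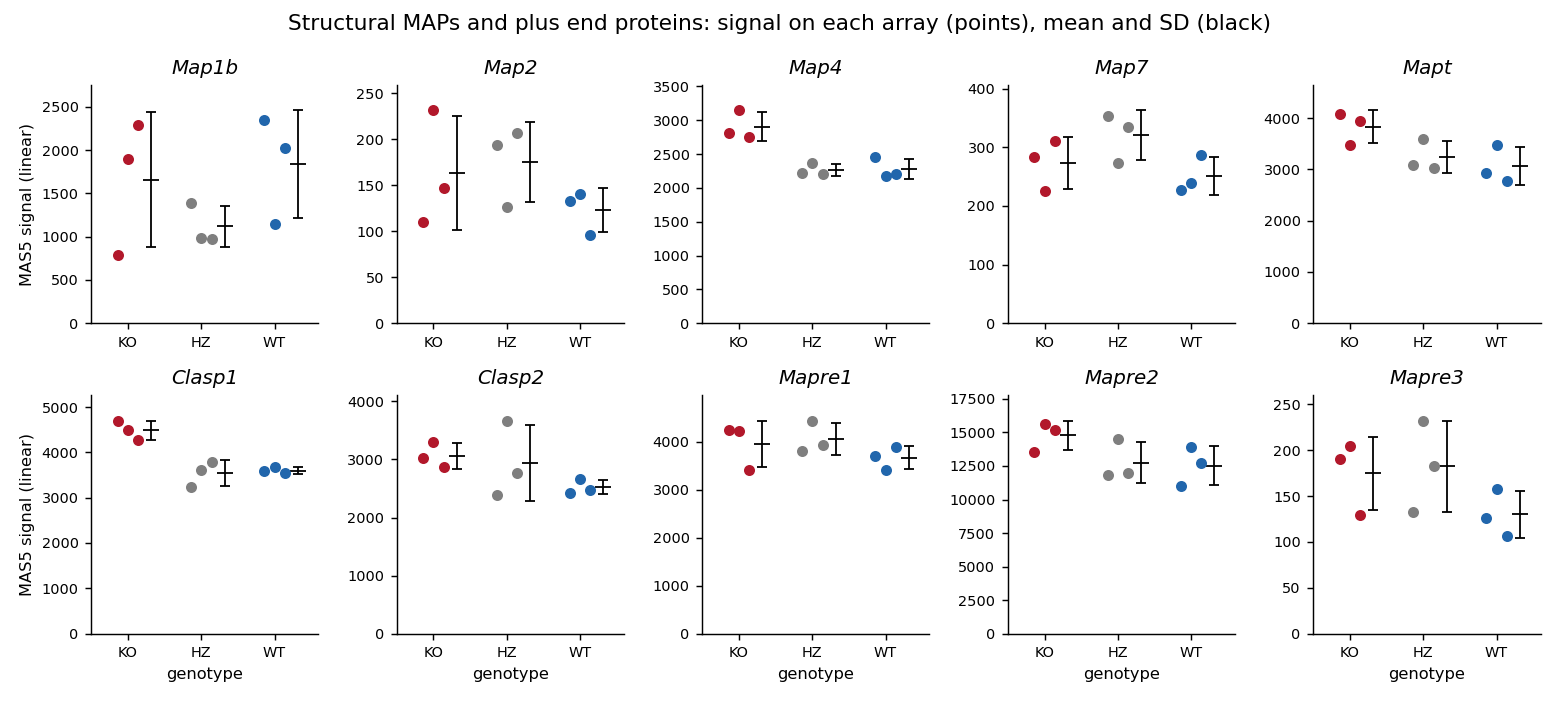
MAS5 signal of structural MAP and plus end genes on each array, with KO, HZ and WT from left to right, a panel per gene and bars for the mean and SD of 3 arrays. The KO points of Map4 and Clasp1 lie above all HZ and WT points, and those of Map1b are spread from 788 to 2286.

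The kinesins are the motors of the set. Of 29 tested probe sets of kinesins outside the mitotic group, 14 were positive in KO against WT (median log2 change -0.0084), 14 in HZ against WT (median -0.029) and 16 in KO against HZ (median 0.024). The sign of the median turned under 6 alternatives in KO against WT, 7 in HZ against WT and 3 in KO against HZ. With 1 probe set per gene it was 0.015 in KO against WT. Kif2a, a kinesin that takes microtubule ends apart and restrains axon branches, averaged 4512 ± 116 on KO, 4244 ± 707 on HZ and 4354 ± 661 on WT arrays (SD, n = 3 each). Kif1b, a carrier of synaptic vesicle precursors and mitochondria, averaged 4414 ± 771 on KO, 4238 ± 90.8 on HZ and 4347 ± 549 on WT arrays. Their KO against WT changes were 0.062 and 0.015, with overlapping genotypes. A further Kif1b probe set read 952, 717 and 809 on the KO arrays, 574, 834 and 528 on the HZ arrays and 500.3, 711 and 576 on the WT arrays, with all KO arrays above all WT arrays and a change of 0.47 (limma adjusted p = 0.6).

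Kif5c and Kif5b are heavy chains of conventional kinesin, the motor of fast axonal transport, and Kif5c is the neuronal one. Kif5c read 802, 2004 and 2308 on the KO arrays, 1916, 989.5 and 1623 on the HZ arrays and 2678, 2216 and 2212 on the WT arrays. All HZ arrays lay below all WT arrays, while of the KO arrays KO 1 was the lowest of all and KO 3 lay within the WT range. Its log2 change was -0.60 in KO against WT and -0.69 in HZ against WT (limma adjusted p = 0.697 and 0.79), and the KO against WT value was -0.13 without KO 1. Kif5b read 840.3, 735 and 822 on the KO arrays, 966, 483 and 876 on the HZ arrays and 961, 816 and 942 on the WT arrays. HZ 2 was its lowest array, and its HZ against WT change of -0.28 was 0.025 without HZ 2, the array with the highest 3' to 5' ratio.

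Kif3a, Kif3b and Kif3c form the kinesin-2 motors of cilia and axons. Kif3b read 977, 969.9 and 898 on the KO arrays, 934, 684 and 947 on the HZ arrays and 771, 824 and 815 on the WT arrays. All KO arrays were above all WT arrays, and HZ overlapped both. This gave a log2 change of 0.23 in KO against WT (limma adjusted p = 0.748). The other tested probe sets of Kif3b had the opposite sign there, -0.13 and -0.39. Kif3c averaged 2547 ± 399 on KO, 2227 ± 41.6 on HZ and 2171 ± 445 on WT arrays and Kif3a 864 ± 333 on KO, 914 ± 248 on HZ and 1037 ± 199 on WT arrays (SD, n = 3 each), with KO against WT changes of 0.24 and -0.31. A second Kif3a probe set gave 0.15 in KO against WT.

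Among dimmer motors named for their small p, Kif1c, a transporter of vesicles, had a change of -0.41 in KO against WT and -0.33 in KO against HZ (limma adjusted p = 0.705 and 0.792). A second Kif1c probe set gave 0.13 in KO against WT and -0.37 in KO against HZ. In HZ against WT, Kif21a, a regulator of plus end growth, gave 0.38 and Kif16b, an endosome motor, -0.29 (adjusted p = 0.79 and 0.82).

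The mitotic kinesins build the spindle of dividing cells. Their 7 tested probe sets had a median log2 change of 0.043 in KO against WT, 0.03 in HZ against WT and -0.057 in KO against HZ, and the sign turned under 5 alternatives in KO against WT, quantile normalization among them, and under 2 in HZ against WT, 1 of them scaling arrays to 1 median. Kif4, a chromosome-bound motor, read 341, 311 and 351 on the KO arrays, 346, 343 and 355 on the HZ arrays and 286, 304 and 249 on the WT arrays. All KO and all HZ arrays lay above all WT arrays. The log2 change was 0.25 in KO against WT and 0.30 in HZ against WT (limma adjusted p = 0.73 and 0.79). Kif22, a chromosome motor measured with an _x_at set, averaged 921 ± 225 on KO, 986 ± 163 on HZ and 1005 ± 384 on WT arrays (SD, n = 3 each). The 13 measured markers of dividing cells summed to 4141 to 4199.9 on KO arrays, 3216 to 4414 on HZ arrays and 3833 to 4863 on WT arrays, which overlap. Of the 9 kept, 7 were positive in KO against WT (median log2 change 0.12), 4 in HZ against WT and 6 in KO against HZ. Over all probe sets tested, 53.7%, 55.3% and 46.6% were positive in these comparisons.

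**Figure D5:**
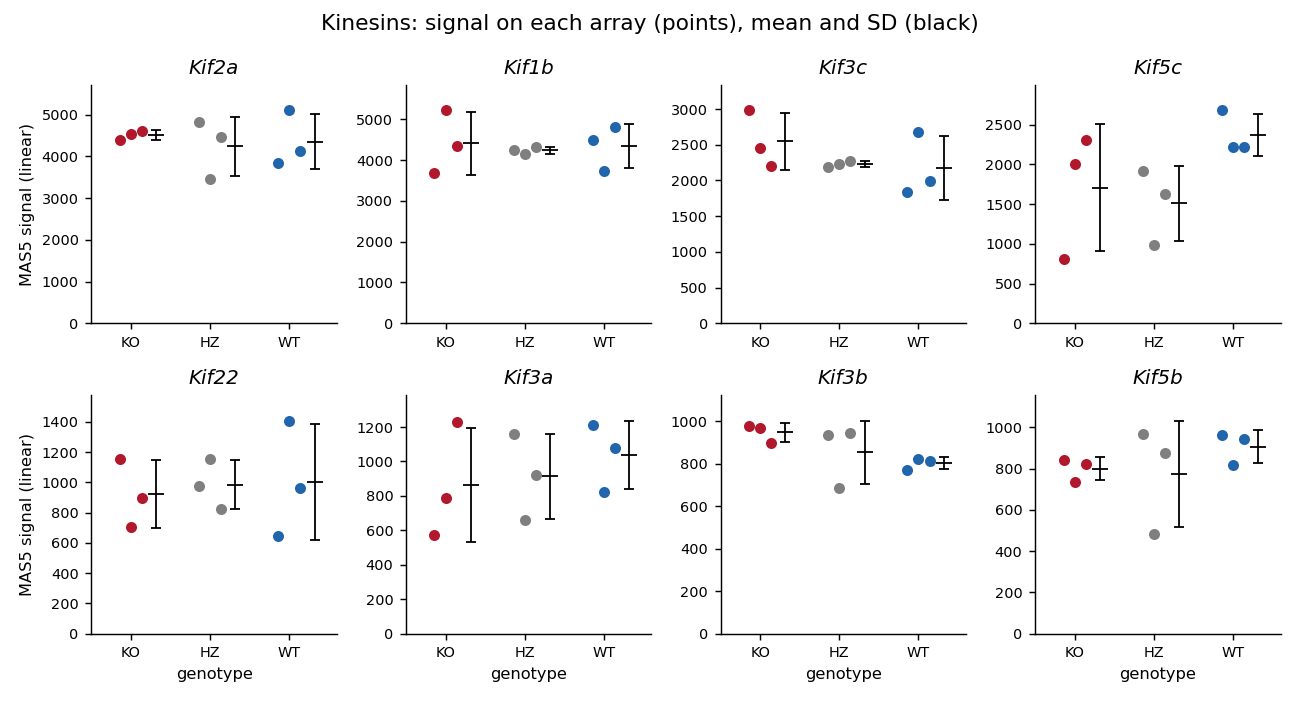
MAS5 signal of the 8 kinesin genes with the brightest probe sets on each array, with KO, HZ and WT from left to right, a panel per gene and bars for the mean and SD of 3 arrays. KO 1 is the lowest point of Kif5c at 802, and the KO points of Kif3b lie above all WT points. The other tested probe sets of Kif3b, not drawn, were negative in KO against WT.

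Probe sets of the same gene often pointed different ways. Of 23 genes with several tested probe sets, both signs occurred in 15 genes when KO was set against WT, in 14 when HZ was set against WT and in 10 between KO and HZ. Tuba4a, Tubb2a, Stmn1, Stmn3, Dpysl3, Map4, Clasp2 and Mapre2 had 1 sign over all their tested probe sets in KO against WT, and Tubb4b, Tubb5, Stmn2, Dpysl4, Map1b, Mapt and Mapre1 did not. Nor did any kinesin with several tested probe sets, namely Kif2c, Kif17, Kif1b, Kif1c, Kif2a, Kif3a, Kif3b and Kif5b.

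Other genes that make, modify or read microtubules were described from 8 further lists, and none of their tested genes passed in any comparison. From each list the gene of smallest p in KO against WT is named. Plus end binding proteins outside the set had all 8 tested genes positive in KO against WT, with the smallest p for Nav2, a neuron navigator (0.50, limma adjusted p = 0.622). Other MAPs and severing enzymes had 11 of 14 positive, with Spast, the severing protein spastin, at 0.37 and all KO arrays above all WT arrays (adjusted p = 0.565). Tubulin modifying enzymes had 8 of 9 positive, the exception being the deacetylase Sirt2 at -1.26 (adjusted p = 0.518), whose KO 3 array lay within the WT range.

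The gamma tubulin ring complex and centrosome list had 6 of 7 positive, with Tubgcp4 at 0.42 (limma adjusted p = 0.623). Dynein and dynactin, the motor toward minus ends, had 9 of 16 positive, with its cargo adaptor Bicd2 at 0.59 (adjusted p = 0.533). Kinesin light chains and cargo adaptors had 7 of 10 positive, with the adaptor Fez1 at -0.44 and all KO arrays below all WT arrays (adjusted p = 0.536). Tubulin folding cofactors and chaperones had 8 of 17 positive, with cofactor Tbce at -0.45 (adjusted p = 0.589). Kinases and phosphatases that act on CRMPs, MAPs and tau had 10 of 17 positive, with Cdk5r1, the p35 activator of Cdk5, at 0.45 (adjusted p = 0.537). Over all probe sets tested, 53.7% were positive in KO against WT.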

How the data were processed

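Each of the 9 arrays took its group from the genotype in its title. The deposited values are probe set intensities on a linear scale, which the authors computed with the MAS5 algorithm; the submitters' processing notes name Affymetrix Expression Console as the software, with neither version nor filter. The mean of each array without its outer 2% of probe sets was 500.2, so scaling to a common level had been done. Such scaling assumes that most transcripts are alike across arrays, and MAS5 signals scatter strongly where probe sets are dim.

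Without the 64 control probe sets, the 60% with the highest mean of log2(signal + 16) over the 9 arrays were kept (13576, lowest mean signal 118). Fold changes on this scale understate those of dim probe sets. One model with genotype as its only term was fitted in R 4.3.3 by limma 3.58.1, using eBayes with an intensity trend (residual degrees of freedom 6, prior 6.94). Tests were 2-sided, with Benjamini-Hochberg adjustment over the 13576 and a threshold of 0.05. The procedure was tested on simulated data.

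Gene names come from the platform annotation, which gave 1 symbol for 20393 probe sets and several for 691, which stayed unnamed. All 57 member genes matched RefSeq by Entrez identifier and 0 symbols differed. The annotation does not place probes, so no coordinates or probe sequences are printed. The members and the lists were chosen with earlier results of these data known. Named were all tubulins, stathmins, CRMPs, structural MAPs and plus end proteins, the 8 brightest kinesins, the 6 tested genes of smallest p in each direction of each comparison, and, in each further list, the gene whose KO against WT p was smallest; other probe sets named were chosen after their values were seen. Alternatives covered the pseudocount, filter, scaling, eBayes trend, array weights, single arrays left out, sex, 3' to 5' ratio, the replicate number, the genotypes fitted together and 1 probe set per gene. Counts of non-overlapping groups without HZ 2 or WT 2 were added after the data were seen.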

Additional observations from a re-analysis of the deposited data

How the results depend on the processing

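Under each of 21 alternatives, 0 of the microtubule members passed the threshold in any of the 3 comparisons, with smallest limma adjusted p values no lower than 0.244 (KO against WT), 0.235 (HZ against WT) and 0.295 (KO against HZ). Some alternatives could not alter a log2 change in this design, so their agreement tells nothing about it. They were the eBayes trend, the replicate number, sex, the compared genotypes fitted alone, and leaving out an array of the uncompared genotype. The median log2 change over the members kept its sign except in HZ against WT. There it was -0.0085 with the brightest 30% of probe sets, against 0.037. The median over all probe sets moved there from 0.031 to -0.011. In KO against HZ the member median was 0.14 with that filter and 0.030 with array weights, against 0.072. Over all probe sets these were -0.0025 and -0.029, against -0.02. Leaving out 1 array at a time gave member medians of 0.066 to 0.14 (KO against WT), 0.013 to 0.088 (HZ against WT) and 0.019 to 0.081 (KO against HZ). The highest of the first 2 came without WT 2 and the lowest of the last without HZ 2. Over all probe sets, the medians in those settings were 0.034, 0.038 and -0.039. Of 132 results on named members, 52 turned sign in at least 1 alternative. Of the 36 named for small p, 1 did, Kif5b without HZ 2. Those 36 were picked for small p on these same arrays, which favours a stable sign, so this count does not support them. Over all probe sets, 0 to 5 passed in KO against WT, 0 to 3 in HZ against WT and 0 to 3 in KO against HZ. The causes were not tested.

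The titles number the replicates, but nothing says that a number marks a shared litter or day. Same-numbered arrays had deviations from their genotype means that correlated at -0.26 to 0.11, and 3 of 9 arrays correlated best with their own number. With the replicate block, 0 members passed. The medians stayed at 0.086, 0.037 and 0.072 in KO against WT, HZ against WT and KO against HZ. They could not change, because each number occurs once in every genotype. Dim probe sets and 3 arrays per genotype limit the precision.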

Other observations

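Several members had a probe set whose values scattered widely. One Kif5b probe set read 1142, 558 and 401 on the KO arrays, 835, 27.2 and 498 on the HZ arrays and 543, 230.2 and 506 on the WT arrays, so that HZ 2 was far below the other arrays. The dimmest tested probe set of Kif3b read 73.6, 331 and 287 on the KO arrays, 68.3, 77.3 and 160.2 on the HZ arrays and 216, 391 and 211 on the WT arrays, with all HZ arrays below all WT arrays, and its HZ against WT log2 change of -1.32 was the most negative of the 94 tested (limma adjusted p = 0.789). The brighter 2 Kif3b probe sets gave 0.074 and -0.15. At its brightest probe set Kif17, a dendritic motor that carries NMDA receptor vesicles, read 888, 429 and 489 on the KO arrays, 538, 639 and 331 on the HZ arrays and 364, 667 and 296 on the WT arrays, with KO 1 the highest array. That probe set gave 0.44 in KO against WT, and the other tested one gave -0.17.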
